A study of Mus musculus with 9 samples.

Results

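The genes described here encode the core of the cGAS-STING pathway. They were chosen by symbol: Cgas, Sting1, Tbk1, Ikbke, Irf3, Trex1 and Samhd1. Of these 7 genes, 6 had a probe set of their own among 22180 genes measured on mouse MoGene 2.0 arrays. The one probe set of Trex1 also reads Atrip, so no value is given for Trex1.

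RNA came from mouse embryonic fibroblasts of 3 genotypes. Wild type cells (WT) are labelled STING+/+, the cells called SKO are labelled STING-/-, and the cells called MyD88KO are labelled MyD88-/-, although the series' design text and the growth protocol write MyD99KO. Each genotype had a control that the protocol calls untreated and the titles call mock, cells transfected with double-stranded DNA (dsDNA, named ISD in the titles) and cells given lipopolysaccharide (LPS), with 6 h for either treatment and no time stated for mock. There was 1 array for each genotype and treatment, 9 in all, so no group has a replicate of its own. A difference between 2 arrays therefore carries no test, and the tests below take their spread from genotypes or treatments that were assumed to share an effect. Nothing in the labels says that cultures of a genotype came from separate embryos, so a p-value measures only how far these arrays depart from shared effects. In the response fit, that departure is how far WT and MyD88KO differ in dsDNA change, and WT and SKO in LPS change. Technical scatter and true differences between genotypes cannot be told apart in it. The labels used here name no mouse strain, embryo age or targeted exon, and do not say whether mock cells received transfection reagent.

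When DNA lies in the cytosol, the enzyme cGAS (Cgas) binds it and makes the cyclic dinucleotide cGAMP, which activates STING (Sting1), an adaptor in the membrane of the endoplasmic reticulum. STING recruits the kinase TBK1 (Tbk1) and its close relative IKK-epsilon (Ikbke), and TBK1 phosphorylates the transcription factor IRF3 (Irf3), which then drives interferon-beta. Secreted interferon acts back on the cells through its receptor. The nuclease TREX1 removes cytosolic DNA, and SAMHD1 (Samhd1) breaks down deoxynucleotides and restrains the sensing of nascent DNA; loss of either is known to cause interferon-driven disease. LPS is sensed at the cell surface and in endosomes by Toll-like receptor 4, which signals through MyD88 and, separately, through TRIF and TBK1.

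Sting1 checked the SKO label. In WT its log2 signal was 8.54 in mock, 8.57 after dsDNA and 8.54 after LPS, while in SKO it was 4.54, 4.60 and 3.78 in the same order. The median of all values on the arrays was 4.44, so the SKO signal lay near the level of the dimmer genes. Myd88 did not settle the MyD88KO label, since it read 7.52, 8.95 and 7.73 in WT and 6.99, 8.21 and 7.17 in MyD88KO (-0.61 ± 0.19, limma adjusted p = 0.0613) and its probes may read outside the deleted region. Of 11 fibroblast markers measured, Vim, Col1a1 and Fn1 were between 11.68 and 12.78 on all arrays. Lum read only 3.02 to 4.53, and Pdgfra 5.69 to 8.55. Among muscle markers, Acta1 read 9.47 to 9.97 and Des 8.39 to 9.08, but Ckm 4.68 to 4.93. Among endothelial markers, Kdr read 6.18 to 7.60 and Pecam1 4.35 to 4.75. The markers therefore do not exclude other cells in the cultures. Of 12 leukocyte and macrophage markers, the T cell gene Cd3e was the dimmest by its median over the arrays (3.89, between 3.46 and 4.15) and the lysosomal gene Cd68 the brightest (7.54, between 7.35 and 7.86), while the leukocyte gene Ptprc read between 4.37 and 5.45. Adgre1 and Cd14 reached 7.15 and 7.31 on their highest arrays.

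Promoter sequence was looked at because several of these genes rose together after dsDNA. RefSeq windows (assembly GRCm38.p6, 250 bases before to 50 after each gene's start) were given for Cgas, Tbk1, Ikbke, Irf3, Samhd1 and Trex1. The 250 bases before the start are shown for the 3 genes that passed the dsDNA test, each 5′ to 3′ on the gene's own strand, with capitals for a match to a searched motif.
Cgas chr9:78443238-78443487, minus strand: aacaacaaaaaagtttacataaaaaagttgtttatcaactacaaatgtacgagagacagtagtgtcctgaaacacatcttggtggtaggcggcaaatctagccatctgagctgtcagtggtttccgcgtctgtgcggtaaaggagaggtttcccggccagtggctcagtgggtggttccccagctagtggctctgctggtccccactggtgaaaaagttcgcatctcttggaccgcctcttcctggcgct
Tbk1 chr10:121586795-121587044, minus strand: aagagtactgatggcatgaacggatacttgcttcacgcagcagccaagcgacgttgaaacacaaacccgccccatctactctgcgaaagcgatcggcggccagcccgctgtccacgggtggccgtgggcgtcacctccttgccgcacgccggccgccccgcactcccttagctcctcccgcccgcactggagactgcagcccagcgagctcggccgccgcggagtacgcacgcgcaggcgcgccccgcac
Samhd1 chr2:157135097-157135346, minus strand: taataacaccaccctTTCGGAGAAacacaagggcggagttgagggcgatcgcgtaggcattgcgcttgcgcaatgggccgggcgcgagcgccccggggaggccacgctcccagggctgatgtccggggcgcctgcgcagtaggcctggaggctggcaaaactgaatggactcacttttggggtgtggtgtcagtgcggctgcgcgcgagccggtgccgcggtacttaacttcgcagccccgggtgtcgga
Motifs of 3 kinds were searched on both strands: the ISRE core GAAANNGAAA, bound by IRF factors, the GAS element TTCNNNGAA, an interferon-responsive sequence, and the kB motif of NF-kB. The capitals in Samhd1 mark TTCGGAGAA, a GAS match at bases -235 to -227 before the start. A GAS match occurs in 8.298% of the 32851 RefSeq windows. The ISRE core, present in 3.443% of those windows, was not found in the windows of Cgas, Tbk1, Ikbke, Irf3, Samhd1 or Trex1, and of these genes Trex1 alone had a kB match (8.459% of windows). A match describes letters and not binding, and these letters being missing from a short window says nothing of the factor.

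In mock WT cells, Cgas read 4.19, just below the median of all values, and the other 5 genes read between 5.35 and 8.85. Probe sets differ in how brightly they read, so levels are compared here within a gene only. Over the 9 arrays, the log2 signal of Sting1 spanned 5.54, that of Cgas 3.03, Samhd1 2.08, Ikbke 1.67, Tbk1 1.05 and Irf3 0.50. In bulk RNA, fewer cells of a type and less RNA per cell cannot be told apart.

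**Figure D1:**
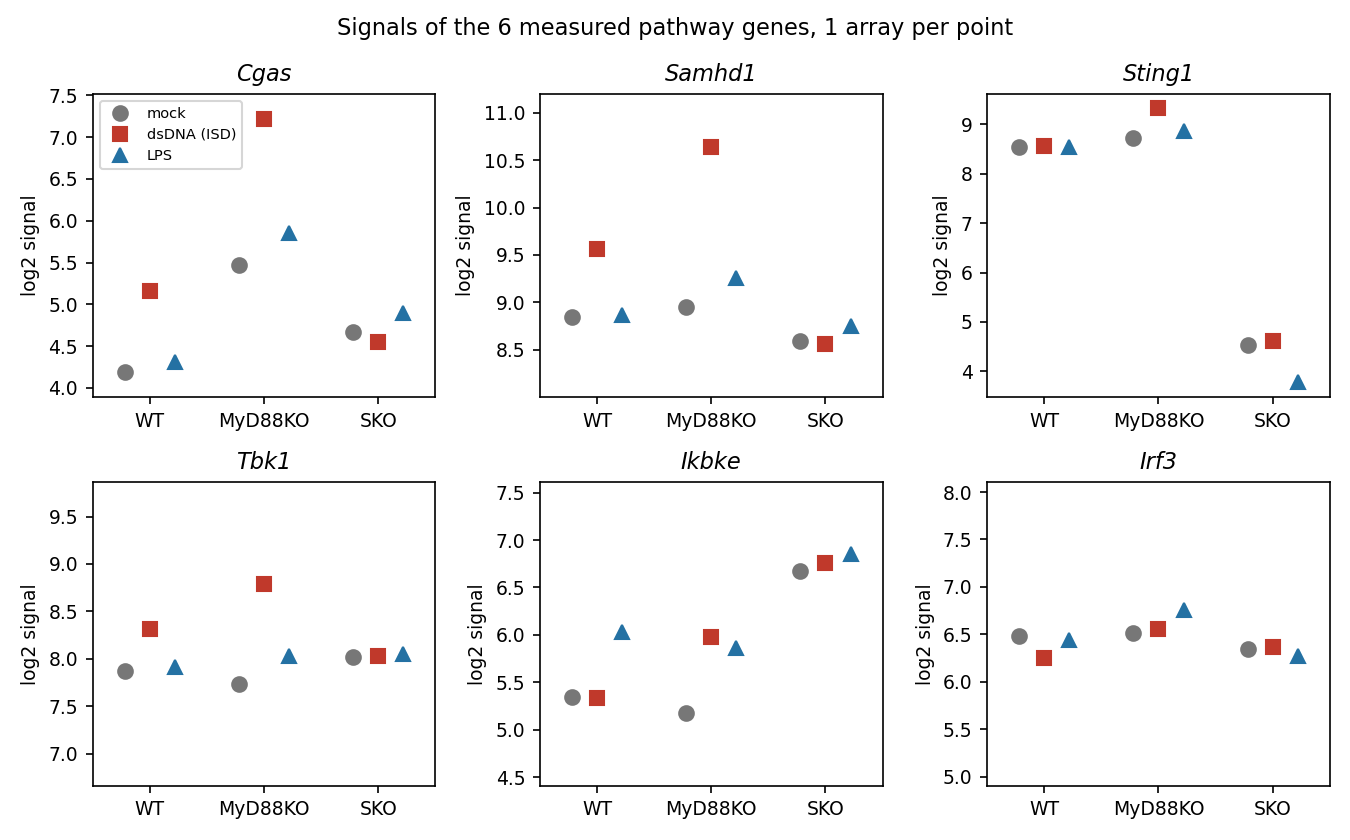
Log2 signal (y axis) of the 6 measured genes on each of the 9 arrays, by genotype (x axis) and treatment (colour and shape); each point is 1 array, so there are no error bars, and each panel has its own axis range. Sting1 is low on the 3 SKO arrays, and Cgas, Tbk1 and Samhd1 are highest on the MyD88KO dsDNA array.

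The components that rose after dsDNA were the sensor, the kinase TBK1 and the deoxynucleotide hydrolase SAMHD1. In the fit of 1 dsDNA effect common to WT and MyD88KO, the genotypes that have STING, 3 of the 6 genes rose: Cgas 2.56-fold, Samhd1 2.28-fold and Tbk1 1.66-fold. Sting1, Ikbke and Irf3 did not pass. Over all genes tested, 5.27% were called higher in this fit.

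Cgas, the sensor itself, read 4.19 in WT mock, 5.16 in WT dsDNA and 4.30 in WT LPS. It read 5.47, 7.22 and 5.85 on the matching MyD88KO arrays and 4.67, 4.55 and 4.89 on those of SKO. The dsDNA array was the highest of its genotype in WT and in MyD88KO, and the lowest of its genotype in SKO. The change from mock was 0.98 in WT (1.97-fold) and 1.75 in MyD88KO (3.37-fold), against -0.12 in SKO. The WT mock and WT LPS signals were below the median of all values, where a log2 difference understates the change. In the shared fit Cgas rose by 1.35 ± 0.18 (SE, limma adjusted p = 0.00736, 95% interval 0.92 to 1.79).

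Samhd1 followed the same order of genotypes. Its signal was 8.85, 9.56 and 8.87 in WT mock, dsDNA and LPS, 8.96, 10.64 and 9.26 in MyD88KO, and 8.60, 8.56 and 8.75 in SKO. Both STING-sufficient dsDNA arrays lay above the other 7 arrays. The change was 0.72 in WT (1.65-fold), 1.68 in MyD88KO (3.21-fold) and -0.03 in SKO. In the shared fit the rise was 1.19 ± 0.19 (limma adjusted p = 0.0152, 95% interval 0.73 to 1.65).

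Tbk1, the kinase that phosphorylates STING and IRF3, was 7.87, 8.32 and 7.91 in WT and 7.74, 8.79 and 8.03 in MyD88KO. In SKO it was 8.02, 8.03 and 8.05, a range narrower than the difference between mock and dsDNA in either other genotype. Here too the dsDNA arrays of WT and MyD88KO were the 2 highest of the 9. The change was 0.45 in WT (1.37-fold) and 1.05 in MyD88KO (2.08-fold), and the shared rise was 0.73 ± 0.14 (limma adjusted p = 0.0258, 95% interval 0.40 to 1.06).

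The calls of these 3 genes rested on few arrays. Refits without WT LPS, SKO mock or SKO LPS gave the same sizes as the 4-array refit below, so they are not separate checks. The refits without MyD88KO mock and without MyD88KO dsDNA likewise gave the same sizes as each other. Without any 1 of the WT LPS, SKO mock or SKO LPS arrays none of the 3 passed: adjusted p was 0.0888, 0.0854 and 0.0868 for Cgas, 0.148, 0.143 and 0.145 for Tbk1, and 0.132, 0.127 and 0.128 for Samhd1, with sizes of 1.36, 0.75 and 1.20. Without the MyD88KO mock or the MyD88KO dsDNA array, Cgas (1.0, adjusted p 0.0569 and 0.0619) and Tbk1 (0.44, adjusted p 0.130 and 0.136) did not pass, and Samhd1 did at 0.75 (adjusted p 0.0360 and 0.0380). With no intensity trend in the fit, Samhd1 (adjusted p = 0.0531) and Tbk1 (0.0728) did not pass. With the 4 mock and dsDNA arrays of WT and MyD88KO alone none of the 3 did, with adjusted p of 0.0743, 0.112 and 0.129 for Cgas, Samhd1 and Tbk1.

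Sting1, Ikbke and Irf3 were not called. Sting1 changed by 0.02 in WT and 0.59 in MyD88KO, where the dsDNA array read 9.32 against 8.73 in mock (0.19 ± 0.22, limma adjusted p = 0.699, 95% interval -0.34 to 0.71). The SKO mock and LPS arrays, where Sting1 read 4.54 and 3.78, also enter this estimate and its error. With the 4 mock and dsDNA arrays of WT and MyD88KO alone it was 0.31 ± 0.15. Ikbke, the inducible relative of TBK1, was 5.35 in WT mock and 5.34 in WT dsDNA but 5.18 and 5.98 in MyD88KO (0.30 ± 0.23, limma adjusted p = 0.515). Irf3, a constitutively made factor whose activity is set by phosphorylation, was 6.49 and 6.26 in WT and 6.52 and 6.56 in MyD88KO (-0.11 ± 0.10, limma adjusted p = 0.608, 95% interval -0.35 to 0.13).

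Array by array, none of the 6 genes was up at least 2-fold in WT after dsDNA, where 1.94% of bright genes were. In MyD88KO 3 of the 6 were (Cgas, Samhd1 and Tbk1), against 3.31% of bright genes, and in SKO 0 of the 6, against 0.143%. Among bright genes ordered by their rise, Cgas stood 283rd of 13924 in WT and 209th of 14027 in MyD88KO. Samhd1 stood 445th and 220th in the same comparisons, and Tbk1 810th and 435th. The median change over the 6 genes was 0.24 in WT, 0.93 in MyD88KO and 0.01 in SKO, with medians of 0, -0.03 and 0.0007 over all bright genes.

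With its sign, the dsDNA change of each of the 6 genes was higher in MyD88KO than in WT, by a median of 0.69; for Irf3 it went from -0.23 in WT to 0.04 in MyD88KO, the smaller change in size. The same was so for 84.8% of the 494 genes up at least 2-fold in WT or MyD88KO and for 44.6% of 14346 bright genes. The 494 were picked by these same changes, with 270 genes up in WT and 464 in MyD88KO. Their share therefore leans to MyD88KO by selection and is no yardstick for the components. Of 73 other genes of the pathway, 31 had the higher signed change in MyD88KO. Each of these differences rests on 4 arrays, 1 of each kind, and was not tested.

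**Figure D2:**
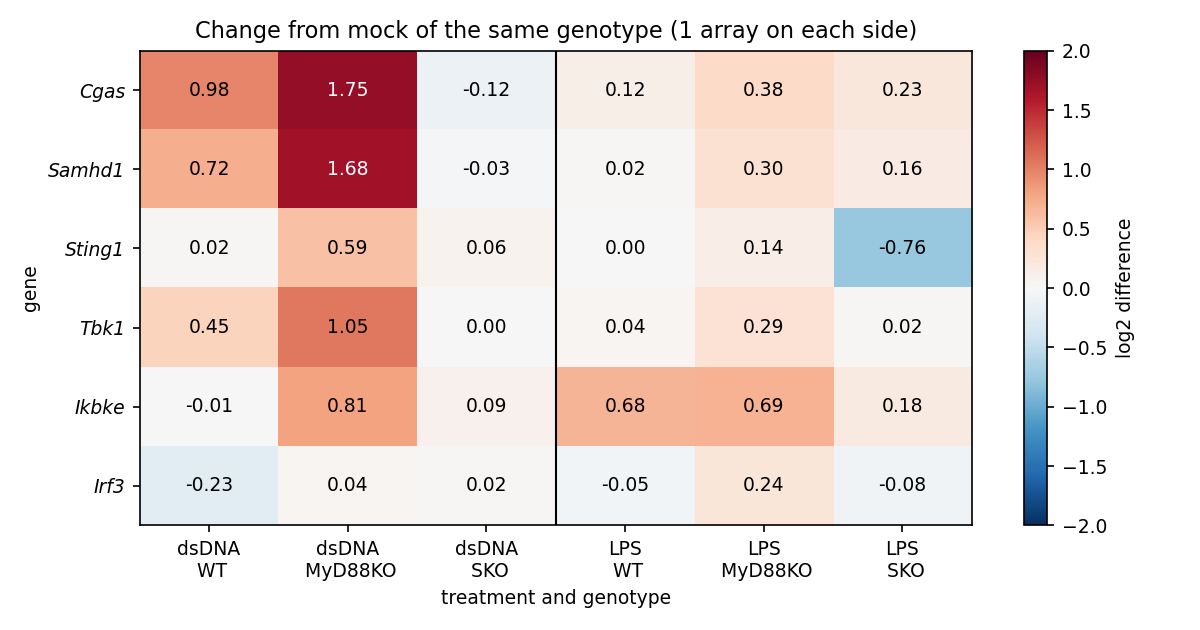
Heat map of the log2 change from the mock array of the same genotype for the 6 measured genes (rows) by treatment and genotype (columns); each cell is a difference of 2 arrays, printed in it and coloured red where higher and blue where lower, with no error. After dsDNA, Cgas, Tbk1 and Samhd1 are at 0.45 to 1.75 in WT and MyD88KO and between -0.12 and 0.003 in SKO.

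Without STING, the dsDNA changes of the 6 genes lay between -0.12 (Cgas) and 0.09 (Ikbke). The question of whether SKO responded less was put to the difference of the fitted responses, STING-sufficient minus SKO. It was 1.45 ± 0.29 for Cgas (limma adjusted p = 0.0956, 95% interval 0.76 to 2.14), 1.19 ± 0.31 for Samhd1 (adjusted p = 0.199, 0.45 to 1.93) and 0.68 ± 0.22 for Tbk1 (adjusted p = 0.316, 0.16 to 1.21). None of the 6 genes passed after adjustment over all genes, of which 1.25% were higher. Without the WT dsDNA array, the STING-sufficient dsDNA response was that of MyD88KO alone, the genotype with the larger changes in these genes. The difference from SKO was then 1.90 for Cgas, 1.75 for Samhd1 and 1.05 for Tbk1. That refit also drops the disagreement between WT and MyD88KO in dsDNA change from the residual. It therefore cannot test a difference common to STING-sufficient cells. With all arrays in the fit, the difference for Ikbke, Sting1 and Irf3 was 0.03, -0.12 and -0.16 (adjusted p 0.990, 0.949 and 0.824).

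After LPS no component was called. In the LPS response shared by WT and SKO, which both have MyD88, 0 of the 6 genes passed, against 0.326% of all genes called higher; 1 of the 6, Ikbke, had an unadjusted p under 0.05. Ikbke read 6.03 in WT LPS against 5.35 in mock, 6.85 against 6.67 in SKO and 5.87 against 5.18 in MyD88KO. Its LPS array was above mock in 3 of 3 genotypes, by 0.68 (1.60-fold), 0.18 (1.13-fold) and 0.69 (1.61-fold). The shared estimate was 0.56 ± 0.23 (unadjusted p = 0.0459, limma adjusted p = 0.901, 95% interval 0.01 to 1.10). The dsDNA and LPS effects were fitted together, with the WT mock array in both. The estimate is therefore not the mean of the WT and SKO changes, and the dsDNA arrays of WT and MyD88KO also move it. Over all alternatives it was 0.18 to 0.89 and was not called in any. By array difference Ikbke stood 212th of 13887 bright genes in WT and 162nd of 13955 in MyD88KO.

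The other LPS changes of Cgas, Tbk1 and Samhd1 lay between 0.02 and 0.38, and those of Irf3 between -0.08 and 0.24. Sting1 read 8.54 on both the mock and the LPS array of WT and differed by 0.14 in MyD88KO. In SKO it read 3.78 after LPS against 4.54 in mock, the first below and the second just above the median of all values. No gene of the 6 was up at least 2-fold after LPS in any genotype, against 0.864% of bright genes in WT, 0.536% in SKO and 0.595% in MyD88KO. The difference in LPS response between MyD88-sufficient cells and MyD88KO called 0 genes of 14737 in limma, also with robust fitting, with 765 at an unadjusted p under 0.05.

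Levels also differed between genotypes at matched treatments. Between the mock arrays of SKO and WT, 2 of the 6 genes differed at least 2-fold, Sting1 at -4.00 and Ikbke at 1.32, against 0.93% of bright genes. Between those of MyD88KO and WT, Cgas alone of the 6 did, at 1.28, against 3.49%. Over the 3 treatments in an additive fit, Sting1 and Ikbke passed in SKO (2.32% of all genes called in either direction) and Cgas passed in MyD88KO (19.5% called).

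Sting1 was lower in SKO by -4.24 ± 0.18 (log2, limma adjusted p = 0.000179). Ikbke was higher there, by 1.19 ± 0.18 (limma adjusted p = 0.0209, 2.28-fold). Its SKO signals of 6.67, 6.76 and 6.85 lay above the 6 other arrays, of which the highest was 6.03, and the difference from WT was 1.32 in mock, 1.42 after dsDNA and 0.82 after LPS. The call was lost without the WT mock (1.22, adjusted p = 0.117), WT dsDNA (0.99, 0.106), SKO mock (1.05, 0.112) or SKO LPS array (1.30, 0.0646). Of 12 leukocyte and macrophage markers measured and 11 tested, 2 were also called higher in SKO, Adgre1 (1.68, limma adjusted p = 0.00381) and Itgam (0.58, adjusted p = 0.0175), and the others did not pass. Between the mock arrays, 9 of the 12 were higher in SKO and 3 lower, Cx3cr1 (-0.45), Csf1r (-0.25) and Mrc1 (-0.22). The median signal of the 12 was 5.88 in SKO mock and 5.34 in WT mock, within 5.22 to 5.88 over the 9 arrays, and Cd3e was below the array median on all 9. Their part in the level of Ikbke was not tested. Cgas, Tbk1, Irf3 and Samhd1 differed between SKO and WT by 0.15, -0.001, -0.06 and -0.46, with limma adjusted p of 0.544 or more.

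**Figure D3:**
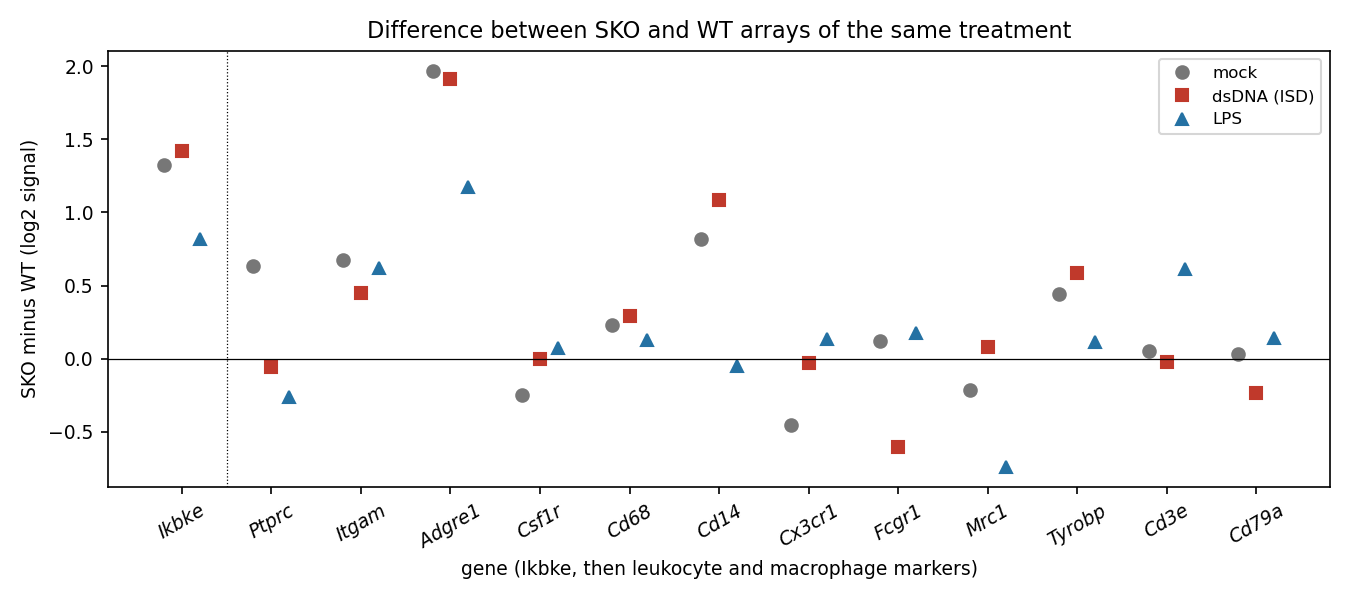
Log2 signal of the SKO array minus that of the WT array of the same treatment (y axis) for Ikbke and the 12 measured leukocyte and macrophage markers (x axis); each point is a difference of 2 arrays, with colour and shape for the treatment and no error bar. Ikbke, Itgam, Adgre1, Cd68 and Tyrobp are above 0 in 3 of 3 treatments, Ikbke at 0.82 to 1.42.

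In MyD88KO, the level of Cgas was higher than in WT by 1.63 ± 0.33 (limma adjusted p = 0.0130, 3.09-fold). The 3 MyD88KO signals, 5.47, 7.22 and 5.85, lay above the other 6, of which the highest was 5.16 in WT dsDNA. The call was lost without the WT mock (1.63, adjusted p = 0.0629) or WT LPS array (1.54, 0.0677). Samhd1 (0.52 ± 0.29, adjusted p = 0.281), Sting1 (0.42 ± 0.18, adjusted p = 0.164) and Irf3 (0.22 ± 0.09, adjusted p = 0.160) did not pass, though Samhd1 did without the SKO dsDNA array (0.52, adjusted p = 0.0422). Fibroblast markers moved with this genotype: 9 of 11 measured were higher and 1 lower, among them Pdgfra (2.43) and Thy1 (2.22), with a median mock difference of 0.53. Other marker lists moved too. Called lower were 5 of 7 muscle, 2 of 4 tested endothelial and 2 of 4 tested epithelial markers, with 0 higher. Of 11 leukocyte and macrophage markers tested, 1 was higher. Of all 14737 genes tested, 1280 were higher and 1587 lower. The part of these markers in the level of Cgas was not tested. Tbk1 and Ikbke differed by 0.15 and 0.10 as averages over treatments. In mock, dsDNA and LPS the array difference was -0.13, 0.47 and 0.11 for Tbk1 and -0.17, 0.65 and -0.16 for Ikbke.

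In the order of the 9 levels, many neighbours lay closer than the residual standard deviation of the response fit. That SD holds the departures from shared effects, so it is not array scatter alone and a narrow gap is only described. For Samhd1 it holds the 0.96 by which the dsDNA change of MyD88KO exceeded that of WT. For Sting1 it holds the difference between the LPS changes of WT and SKO. For Cgas that was so of 5 of 8 gaps (residual SD 0.28), and the 3 wider gaps lay above WT dsDNA and set the MyD88KO arrays apart, the highest by 1.37. For Samhd1 (0.34) 7 of 8 gaps were narrower, and MyD88KO dsDNA stood 1.07 above WT dsDNA. For Tbk1 (0.22) 6 of 8 were narrower, with WT dsDNA and MyD88KO dsDNA set apart at the top. For Ikbke (0.39) 6 of 8 were narrower, and a gap of 0.64 separated WT LPS from the 3 SKO arrays. Irf3 (0.10) had 7 of 8 narrower gaps, the exception being the 0.20 between MyD88KO dsDNA and MyD88KO LPS. For Sting1 (0.39) 5 of 8 were narrower, and 3.94 separated SKO from the rest.

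The wider pathway was described by 84 further genes, of which 73 were measured and 71 tested. After dsDNA, 19 of them rose and 3 fell in the shared fit, where 776 (5.27%) of all 14737 genes tested rose and 338 fell. Leaving out 9 genes of the pathway's output, 11 of 62 tested rose, 3 fell and 48 passed in neither direction. These lists were chosen with results of these data known, so their counts are a description.

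Partners of the sensor and of STING changed in small numbers. Among 7 cGAS cofactors, Trim14, which stabilises cGAS, rose by 1.86 (limma adjusted p = 0.000501). It read 3.92 in WT mock and 5.94 in WT dsDNA, with 4.48 and 6.26 on the matching MyD88KO arrays. Among 5 genes of nucleic acid turnover, Adar, the RNA editing enzyme, rose by 1.84 (adjusted p = 0.000138). Of 6 genes of cGAMP transport none rose, and the volume-regulated channel subunits Lrrc8a (-0.43, adjusted p = 0.0194) and Lrrc8c (-0.27, adjusted p = 0.0479) fell. Of 10 genes of STING traffic and retention, Rhbdf2, which encodes iRhom2, rose by 0.85 (adjusted p = 0.0247).

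Enzymes that modify STING and TBK1 held some of the larger rises. Of 12 measured, 3 rose. The ubiquitin ligase genes Trim56 and Trim30a gained 1.27 (adjusted p = 0.000476) and 2.92 (adjusted p = 0.00574), and Usp18, a protease of the ubiquitin-like protein ISG15 that also dampens interferon receptor signalling, gained 6.63 (adjusted p = 1.42e-05). Usp18 was 5.05 in WT mock, 11.20 in WT dsDNA and 8.83 in WT LPS. In SKO it was 6.08, 7.87 and 10.20, so its dsDNA change of 1.78 there was well above those of the pathway's components.

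Around the kinases, 1 of 7 TBK1 adaptor genes rose, Azi2 (0.71, adjusted p = 0.0130), and 1 fell, Sike1, a suppressor of IKK-epsilon (-0.33, adjusted p = 0.0182). Mavs, Ticam1 and Ticam2, adaptors that bring RNA or Toll-like receptor signals to TBK1, did not pass. Of 4 IRF3 partners, the ubiquitin ligase gene Trim21 rose by 4.52 (adjusted p = 5.81e-05). Of 4 classical IKK and NF-kB genes, Rela rose by 0.29 (adjusted p = 0.0461).

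Of 6 genes of the interferon receptor and its transcription complex, Stat2 (4.36, adjusted p = 3.67e-05) and Irf9 (2.69, adjusted p = 8.80e-05) rose. Stat2 read 5.76, 10.05 and 7.80 in WT mock, dsDNA and LPS and 6.23, 7.35 and 8.99 in SKO. Of the 9 outputs 8 rose: Ifnb1 by 2.48, Irf7 by 4.26, Isg15 by 4.27, Ifit2 by 4.32, Ccl5 by 6.07, Rsad2 by 6.27, Cxcl10 by 6.80 and Ifit1 by 7.53. In SKO, 4 of the 9 were up at least 2-fold after dsDNA, against 0.143% of bright genes. They were Ifit1 (2.81), Cxcl10 (1.87), Rsad2 (1.61) and Isg15 (1.10). The other outputs changed by -0.19 (Ifnb1) to 0.47 (Ccl5) there, each a difference of 2 arrays. Irf7, the interferon-inducible relative of Irf3, was 5.63 in WT mock and 9.44 after dsDNA, where Irf3 went from 6.49 to 6.26. Trim14, Trim56, Trim30a, Azi2, Rhbdf2, Rela, Ifnb1 and the 3 genes that fell lie outside the naming rule and were chosen after their values were seen.

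**Figure D4:**
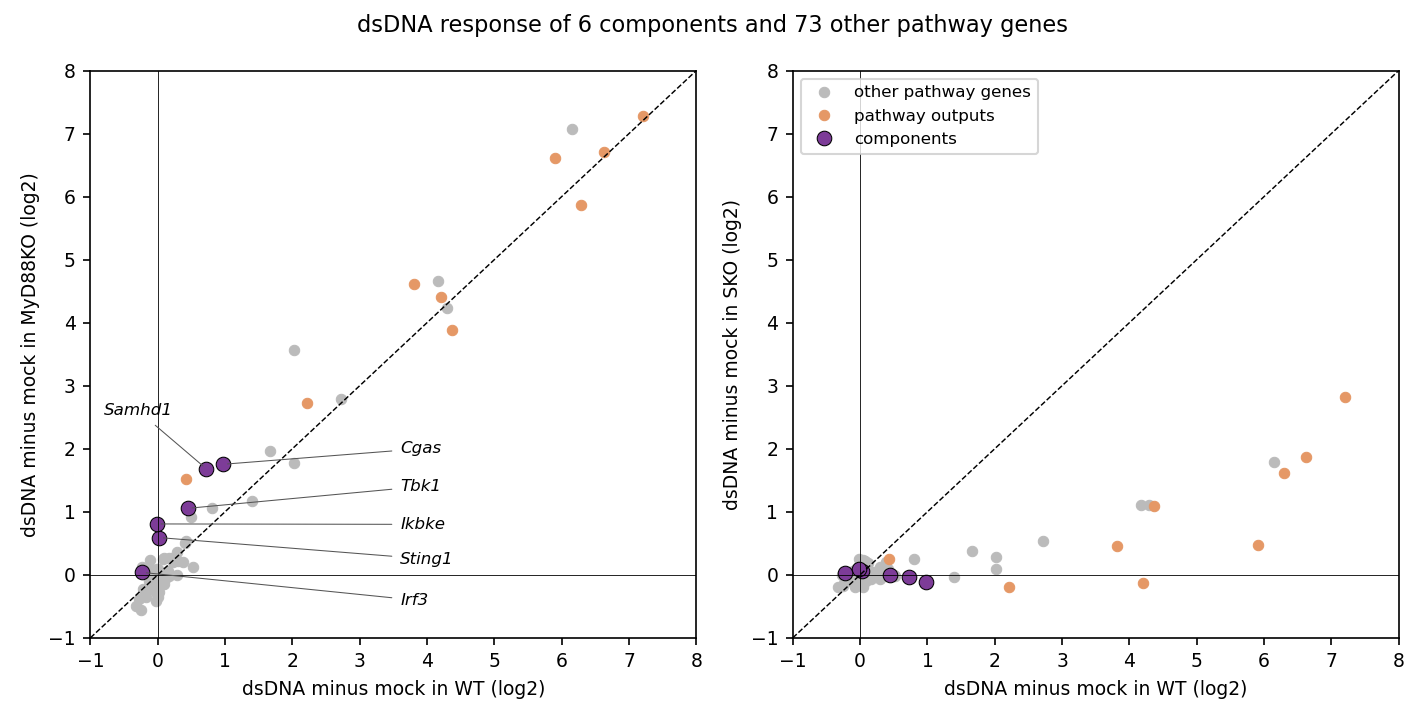
Log2 change after dsDNA in WT (x axis) against that in MyD88KO (left, y axis) and in SKO (right, y axis) for the 6 measured components and 73 other pathway genes; each point is a gene, from 1 array a side, with no error bar, and the dashed line marks equal change. Cgas is at 0.98 and 1.75, Samhd1 at 0.72 and 1.68 and Tbk1 at 0.45 and 1.05, well below outputs such as Cxcl10; in SKO the 6 components lie between -0.12 and 0.09.

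In SKO, the response to dsDNA was smaller in 15 of the 71 pathway genes by the fitted difference, against 1.25% of all genes. These were 8 outputs and 7 others: Adar, Trim14, Trim56, Usp18, Trim21, Stat2 and Irf9. After LPS 12 of the 71 rose in the shared fit, against 0.326% of all genes. They were 7 outputs, Adar (0.95), Usp18 (4.06), Trim21 (1.97), Stat2 (2.37) and Irf9 (1.82). In SKO at matched treatments 1 of the 71, Crebbp, was lower (-0.26, limma adjusted p = 0.0374). Of all genes, 2.32% were called in SKO in either direction. In MyD88KO 6 of the 71 were higher and 7 lower, a share near the 19.5% of all genes called there.

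The genes most like each component over the 9 arrays were taken by Pearson's r among 2144 genes with a span of at least 1. The arrays share genotypes and treatments, so r is a description with n = 9. For Cgas they were Dock11 (0.988), Apod (0.984) and Jdp2 (0.977), and for Samhd1 Klf8 (0.990), Asb13 (0.989) and Vps54 (0.986). For Tbk1 they were Il13ra1 (0.990), Plekha4 (0.990) and Pnp (0.988). Ikbke was most like Mt2 (0.974), Aoah (0.955) and Lcn2 (0.950), and Sting1 most like Fbn2 (0.982), Epha3 (0.981) and Pcsk6 (0.963). Irf3 spanned less than 1 and was not compared. Among the components, r was 0.88 between Cgas and Samhd1, 0.87 between Tbk1 and Samhd1, 0.74 between Cgas and Tbk1, and -0.86 between Sting1 and Ikbke.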

How the data were processed

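Per the submitters' processing notes, the authors made 1 log2 signal per probe set with Affymetrix Expression Console 1.3.1.187; the deposited log2 values were used as they are, with array medians of 4.42 to 4.46. How background was corrected and arrays were normalised is not given in the sources used. Per the labels' protocols, 300 ng of RNA was labelled.

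Of 41345 probe sets, 23521 named 1 gene symbol, 1814 several and 16010 none. Of those with 1 symbol, 23328 matched RefSeq by gene identifier. A gene took its probe set with the highest mean. Tests used limma 3.58.1 in R 4.3.3 (eBayes with intensity trend) over the 14737 genes that reached 4.44 on 1 or more arrays, with Benjamini-Hochberg adjustment and a threshold of 0.05. The response model left 2 residual degrees of freedom and the additive genotype model 4. Bright genes reached 4.44 on an array compared. The response fit was run on simulated data in which WT and MyD88KO had the same dsDNA effect. That run could not show whether a shared effect holds in these arrays. The number of arrays limits the precision.

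The components and lists were chosen with earlier results of these data known. Named genes were the components, pathway genes that passed the dsDNA test and changed at least 2-fold in WT and MyD88KO (12 at most), and the 3 genes most correlated with each component. Alternatives covered the trend, robust fitting, quantile scaling, the dim filter, the choice of probe sets, which arrays share an effect, and leaving out each array. Genes on the lists without a probe set of their own are not analysed here.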

Additional observations from a re-analysis of the deposited data

Results flagged for a closer look

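After dsDNA, Cgas was below mock in SKO (-0.12) and above it in WT and MyD88KO, and so was Samhd1 (-0.032 in SKO). Both SKO changes were smaller than the gene's residual SD in the response fit (0.28 and 0.34). The SKO dsDNA array adds nothing to that SD, which holds the WT and MyD88KO dsDNA disagreement and the WT and SKO LPS disagreement. It cannot judge these changes, and no reversal can be read from a difference of 2 arrays. The fitted difference between STING-sufficient cells and SKO was 1.45 for Cgas (limma adjusted p = 0.0956) and 1.19 for Samhd1 (adjusted p = 0.199), and neither passed. After LPS, Irf3 was higher than mock in MyD88KO by 0.24 and lower than mock in WT and SKO, and the fitted difference, MyD88-sufficient minus MyD88KO, was -0.19 (limma adjusted p = 0.884), which did not pass. Each change from mock is a difference of 2 arrays with no replicate check.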

How the results depend on the processing

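The genes called for the shared dsDNA response numbered 1114, and 638 with no intensity trend or 364 with the 4 arrays of STING-sufficient cells only; the components called numbered 3, and 1 and 0 in those settings. The difference from SKO called 190 genes, and 84 with no trend. The shared LPS response called 49, and 29 with no trend or 79 when all 3 genotypes shared it. Leaving out each array gave 275 to 1138 genes for dsDNA (0 to 3 components), 14 to 248 for the difference (0 to 3), 4 to 52 for LPS (0), 65 to 474 for SKO against WT (1 to 2, where all arrays gave 342 genes and 2) and 1720 to 3504 for MyD88KO against WT (0 to 2, where all arrays gave 2867 and 1). Over all alternatives the shared dsDNA rise was 1.0 to 1.75 for Cgas, 0.75 to 1.68 for Samhd1 and 0.44 to 1.05 for Tbk1. The 6 comparisons in which a component was called kept the call in 63 of 87 refits and lost it in 24; the 30 not called gained one in 4 of 417, and 43 refits changed sign without passing. Some of these refits give the same estimate as another, so they are not all separate checks. The refit without the WT dsDNA array rests the STING-sufficient dsDNA response on MyD88KO alone, so its calls are not of a shared response. The cause of the lost and gained calls and of the sign changes was not tested. No alternative probe set could be tried, since each component has 1. The difference from SKO without the SKO dsDNA array, and the LPS difference without the MyD88KO LPS array, could not be fitted. No paired analysis was possible because each group has 1 array and so no replicate numbers to pair; the genotype fit has treatment as a term.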
